A study of Homo sapiens with 3 samples.

Results

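NFE2L2 encodes the transcription factor NRF2, and HMOX1, NQO1, GCLC, GCLM, TXNRD1, SRXN1, ME1 and OSGIN1 are genes that NRF2 is known to switch on under oxidative stress. These 9 genes were taken by their symbols in the platform's probe-to-gene table, with no measured value used. They were carried by 10 of the 24454 gene probes kept, and were 9 of 17556 named genes. SRXN1 had 2 probes and each of the others had 1. The samples were cultures of HSC-3, an established human tongue squamous carcinoma line, on 1-colour arrays labelled with Cy5. The DKK3 culture received an expression plasmid for HA-tagged full-length DKK3, a glycoprotein that cells secrete. The GFP culture received a green fluorescent protein plasmid, and the untransfected culture received none. RNA was taken 24 hours after transfection, in medium with 10% serum. What share of the cells took up plasmid was not given in the sources read. A treatment label also names C2C12, a mouse muscle line, while the description and source fields name the tongue line. Each group was 1 array, so no difference below has a replicate check, a test or a p-value, and precision is limited by having 3 arrays.

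In unstressed cells the adaptor KEAP1 binds NRF2 and hands it to a CUL3 ubiquitin ligase for destruction. Electrophiles and oxidants modify KEAP1, and NRF2 then accumulates, enters the nucleus with small MAF proteins and binds antioxidant response elements, which the repressor BACH1 can also occupy. Its targets make and spend glutathione, thioredoxin and NADPH, and in squamous carcinomas the pathway is often switched on by mutation. NRF2 is controlled largely at the level of the protein, which an array of RNA does not measure.

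Promoter sequences were looked up because all 9 genes belong to a single regulon. RefSeq promoter entries of build GRCh38.p14 matched 8 of the 9 genes by symbol, all but HMOX1. The core of the antioxidant response element, TGACNNNGC, was searched on both strands in the 250 bases before each gene's start. It was present in 3 of the 8 windows, those of TXNRD1, ME1 and GCLM, and in 11.3% of the windows of all genes with a kept probe. The TXNRD1 match began 99 bases before the start on the gene's own strand, the ME1 match 137 bases before it on the same strand, and the GCLM match 34 bases before it on the opposite strand. The ME1 match contains TGACTCA, the site of the AP-1 factors. A match is a description of letters, and its absence says nothing about elements outside the window. The 3 windows with a match follow, with the match in capitals. The window of NQO1, the member furthest above untransfected cells in the main processing, is given too and held none. They lie at chr12:104215529-104215778 (TXNRD1, plus strand), chr6:83431052-83431301 (ME1, minus strand), chr1:93909431-93909680 (GCLM, minus strand) and chr16:69726561-69726810 (NQO1, minus strand), and are written 5′ to 3′ on the gene's strand.
TXNRD1: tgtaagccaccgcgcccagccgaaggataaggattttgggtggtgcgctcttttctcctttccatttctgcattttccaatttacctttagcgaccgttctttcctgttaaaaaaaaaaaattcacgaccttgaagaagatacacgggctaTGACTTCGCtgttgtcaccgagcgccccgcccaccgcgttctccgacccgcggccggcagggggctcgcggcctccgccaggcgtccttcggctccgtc
ME1: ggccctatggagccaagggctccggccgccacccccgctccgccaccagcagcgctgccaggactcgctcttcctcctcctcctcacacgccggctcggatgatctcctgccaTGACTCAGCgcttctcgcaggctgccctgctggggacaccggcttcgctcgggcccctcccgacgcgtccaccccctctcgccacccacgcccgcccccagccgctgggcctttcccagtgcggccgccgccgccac
GCLM: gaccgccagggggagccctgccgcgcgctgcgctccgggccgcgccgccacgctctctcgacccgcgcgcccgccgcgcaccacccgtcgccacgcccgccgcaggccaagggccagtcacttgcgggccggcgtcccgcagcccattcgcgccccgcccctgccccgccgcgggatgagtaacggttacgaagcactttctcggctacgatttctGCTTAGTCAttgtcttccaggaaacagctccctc
NQO1: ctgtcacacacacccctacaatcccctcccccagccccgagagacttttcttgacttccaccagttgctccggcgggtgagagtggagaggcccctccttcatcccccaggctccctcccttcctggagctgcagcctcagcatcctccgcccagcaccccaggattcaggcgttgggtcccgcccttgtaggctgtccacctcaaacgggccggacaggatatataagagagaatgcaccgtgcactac

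A probe was called detected where its spot was brighter than the mean plus 2 SD of the blank spots, an intensity of 36.6 on the DKK3 array, 33.8 with GFP and 40.8 without transfection. 17352, 17226 and 18012 probes passed in that order. Of the 24454 gene probes kept, 16976 were detected on all 3 arrays. The DKK3 probe read 64328 on the DKK3 array, 749 with GFP and 539 without transfection, highest in the culture labelled as given DKK3. All 13 squamous and epithelial markers on the array were detected on each array, among them KRT5, KRT14 and TP63. Of other cell types' markers, 4 of 9 leukocyte genes had a probe detected on every array, among them CD68 at 277 to 350. So did 3 of 9 fibroblast genes, among them DCN, and 4 of 7 endothelial genes, among them KDR at 64.7 to 74.1. DCN read 151 to 170 on its block 18 probe, and its block 12 probe was not detected on any array. CD3E counted through its block 4 probe, while its block 14 probe was not detected on any array. PTPRC, COL1A1 and CDH5 were not detected on any array. Of 10 skeletal muscle genes, 8 had a probe detected on every array, among them DES at 91.1 to 106.2. Some lay close to the limits, such as TNNT3 at 36.7 and MYOG at 38.3 on the DKK3 array. ACTA1 counted through its block 15 probe, while its block 9 probe was not detected on any array. TNNT1, the brightest of the muscle genes, was printed in block 22 and read 708 on the DKK3 array, 1053 with GFP and 999 without transfection. MYOD1 was detected on the untransfected array, at 41.8, and not on the DKK3 and GFP arrays. The intensities of the muscle genes summed over the blanks were 819, 1205 and 1128 in the order DKK3, GFP and untransfected. Most of each sum came from the TNNT1 spot. For the squamous and epithelial genes the sums were 57389, 68878 and 66877 in the same order. The part of either set in the results was not tested, and no cell type is read from the marker counts. Probes printed in blocks 22 to 24 were low on the DKK3 array. Of detected probes there, 13.1% were at least 1.2-fold lower than on the GFP array, against 1.53% in the other blocks. ME1 is the only member printed in those blocks. GFP minus untransfected medians were above 0 in blocks 1 to 10 and below 0 in blocks 11 to 24. The highest was 0.061 and the lowest -0.043. In that comparison the detected member probes of blocks 3 to 9 (TXNRD1, NQO1, SRXN1, OSGIN1 and HMOX1) lay above 0. Those of blocks 14 to 23 (NFE2L2, GCLC, GCLM and ME1) lay below 0. With block and row medians subtracted they lay at 0.11 to 0.48 and at -0.21 to -0.086. The part of print position was not tested.

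The brightness of the 10 member spots on each array gives the data behind every difference. 9 of the 10 probes were detected on all 3 arrays, and 1 SRXN1 probe, in block 5, was not detected on any, with intensities of 34.0 on the DKK3 array, 32.2 with GFP and 39.8 without transfection. SRXN1 below therefore means its other probe, in block 7. HMOX1 and OSGIN1 were dim, between 70.3 and 83.0 on the 3 arrays. Brightness is not compared between probes, since each probe binds its target differently.

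**Figure D1:**
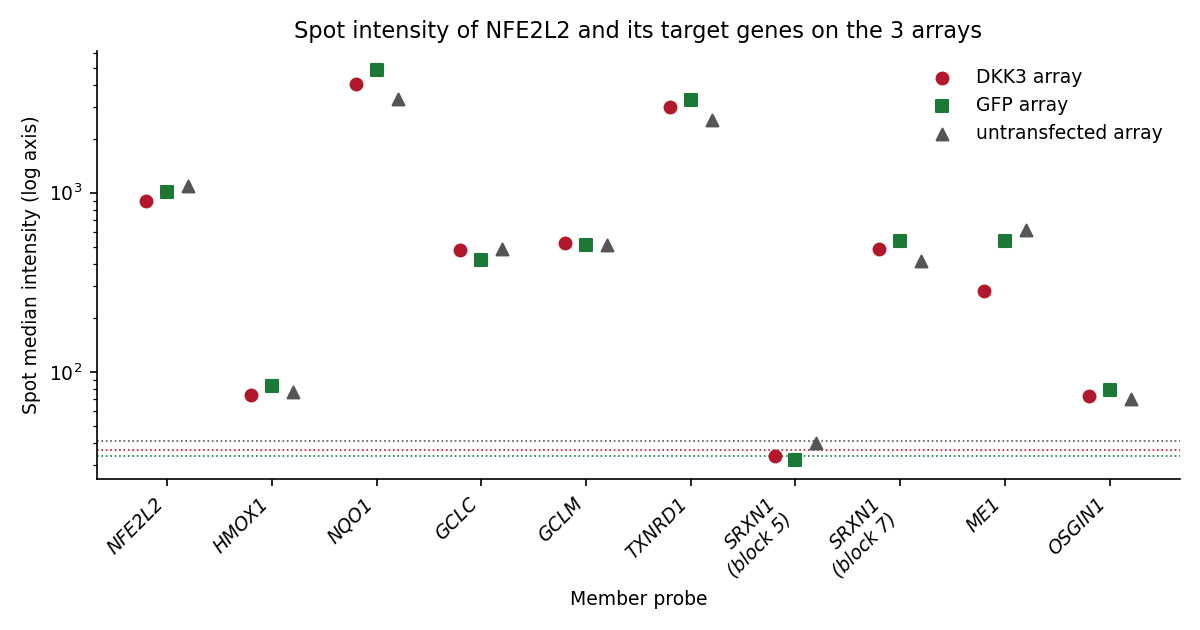
Spot median intensity (log axis) of the 10 member probes, with a marker for each array (DKK3 circle, GFP square, untransfected triangle) and dotted lines at the 3 detection limits of 33.8 to 40.8. NQO1, TXNRD1 and the block 7 SRXN1 spot are brighter on the DKK3 and GFP arrays than on the untransfected array, ME1 is dimmest on the DKK3 array, and the block 5 SRXN1 spot lies under the limits.

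NFE2L2 itself was lower on both transfected arrays than on the untransfected array. Its spot read 904 on the DKK3 array, 1006 with GFP and 1093 without transfection. After normalization the log2 difference was -0.14 for DKK3 minus untransfected and -0.19 for GFP minus untransfected, 1.10-fold and 1.14-fold lower. These sizes were common, since 20.7% and 13.9% of all detected probes lay at least as far from 0. DKK3 minus GFP was 0.050. It was below 0 with median scaling (-0.072), with no normalization (-0.16) and with block and row medians subtracted (-0.0075). For DKK3 minus GFP the median over all genes was -0.017 with median scaling and -0.10 with no normalization. Values of the genes below in these settings stand beside the same medians. Both comparisons with untransfected cells use the same untransfected array here and for all genes below, so they are not independent of each other. The comparisons with DKK3 likewise share the DKK3 array. DKK3 minus GFP and GFP minus untransfected share the GFP array with opposite sign. A single high or low GFP reading therefore moves them in opposite directions.

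NQO1, TXNRD1 and SRXN1 were higher on both transfected arrays. NQO1, which reduces quinones with NAD(P)H, read 4050 on the DKK3 array, 4833 with GFP and 3352 without transfection. The normalized difference from untransfected cells was 0.48 with DKK3 and 0.48 with GFP, 1.39-fold in both, and 1.98% and 1.21% of detected probes lay at least as far from 0. NQO1 held the same rank on the DKK3 and GFP arrays, so their difference was 0.00 after quantile normalization. It was -0.17 with median scaling and -0.26 with no normalization.

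TXNRD1 encodes the cytosolic thioredoxin reductase, which keeps thioredoxin reduced with NADPH. Its spot read 3020 on the DKK3 array, 3298 with GFP and 2547 without transfection. It was higher than in untransfected cells by 0.40 with DKK3 and 0.30 with GFP, 1.32-fold and 1.23-fold. Of detected probes, 3.20% and 4.97% lay at least as far from 0. SRXN1, sulfiredoxin, repairs peroxiredoxins that have been over-oxidised. Its block 7 spot read 488 on the DKK3 array, 534 with GFP and 418 without transfection. It was higher than in untransfected cells by 0.35 with DKK3 and 0.29 with GFP, 1.28-fold and 1.22-fold. Of detected probes, 4.24% and 5.49% lay at least as far from 0. For NQO1, TXNRD1 and SRXN1 the untransfected array was the lowest of the 3, and this order held in each of the 14 alternatives. In the authors' deposited table as it stands, where the median over all genes was -0.25 for DKK3 minus untransfected and -0.23 for GFP minus untransfected, the 3 genes were under 1.2-fold: with DKK3 they were at 0.21, 0.18 and 0.19 in the order named, and with GFP at 0.26, 0.11 and 0.14. With no normalization TXNRD1 and SRXN1 were at 0.25 and 0.23 for DKK3 minus untransfected, and with block and row medians subtracted TXNRD1 was at 0.24 for GFP minus untransfected. DKK3 minus GFP was 0.097 for TXNRD1 and 0.062 for SRXN1. Both were below 0 with median scaling, at -0.044 and -0.054, where the median over all genes was -0.017. With no normalization they were at -0.13 and -0.14, where the median over all genes was -0.10.

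For the enzyme of glutathione synthesis the GFP array gave the lowest reading of both subunits. GCLC is the catalytic and GCLM the modifier subunit of glutamate-cysteine ligase, the rate-limiting step. The GCLC spot read 478 on the DKK3 array, 419 with GFP and 488 without transfection, with the GFP array lowest. DKK3 minus GFP was 0.38, or 1.30-fold, and 1.94% of detected probes lay at least as far from 0. GFP minus untransfected was -0.26, just inside the 1.2-fold limit, and past it in 7 of the 14 alternatives. DKK3 minus untransfected was 0.12, and was -0.014 with no normalization and -0.084 in the authors' deposited table. With median scaling DKK3 minus GFP was 0.25, and with no normalization 0.17, both under 1.2-fold.

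GCLM read 522 on the DKK3 array, 508 with GFP and 514 without transfection, a narrow range. Its normalized DKK3 minus GFP difference was 0.23, 1.17-fold, and 7.54% of detected probes lay at least as far from 0. The difference was 0.024 with no normalization. GFP minus untransfected was -0.053, and DKK3 minus untransfected was 0.17. In the 14 alternatives both subunits were higher with DKK3 than with GFP, and GCLC passed 1.2-fold in 12 of these.

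HMOX1, heme oxygenase 1, splits heme into biliverdin, iron and carbon monoxide and is a classical marker of oxidative stress. Its spot read 74.5 on the DKK3 array, 83.0 with GFP and 77.4 without transfection, against blank spots that averaged 32.1, 28.1 and 36.3 in that order. GFP minus untransfected was 0.16, DKK3 minus untransfected 0.087 and DKK3 minus GFP -0.074. Of detected probes, 18.5%, 34.6% and 40.8% lay at least as far from 0. OSGIN1, a growth inhibitor induced by oxidative stress, read 73.1 with DKK3, 79.1 with GFP and 70.3 without transfection. Its differences were 0.23 for GFP minus untransfected, 0.18 for DKK3 minus untransfected and -0.044 for DKK3 minus GFP. At least as far from 0 lay 10.1%, 14.7% and 58.3% of detected probes. The offset of 50 added in background correction shrinks differences of spots as dim as these. With an offset of 0, GFP minus untransfected was 0.33 for HMOX1 and 0.49 for OSGIN1, and DKK3 minus untransfected was 0.18 and 0.40, while DKK3 minus GFP was -0.14 and -0.089. At that offset 19.0% of all detected probes passed 1.2-fold for GFP minus untransfected. The shares were 19.2% for DKK3 minus untransfected and 16.3% for DKK3 minus GFP.

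ME1, the cytosolic malic enzyme that makes NADPH, had the largest difference of the members in both DKK3 comparisons and was printed in block 23. Its spot read 281 on the DKK3 array, 540 with GFP and 620 without transfection. DKK3 minus GFP was -0.72, 1.64-fold lower, and DKK3 minus untransfected was -0.96, 1.95-fold lower. Of all detected probes, 0.438% and 0.337% lay at least as far from 0. GFP minus untransfected was -0.25.

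**Figure D2:**
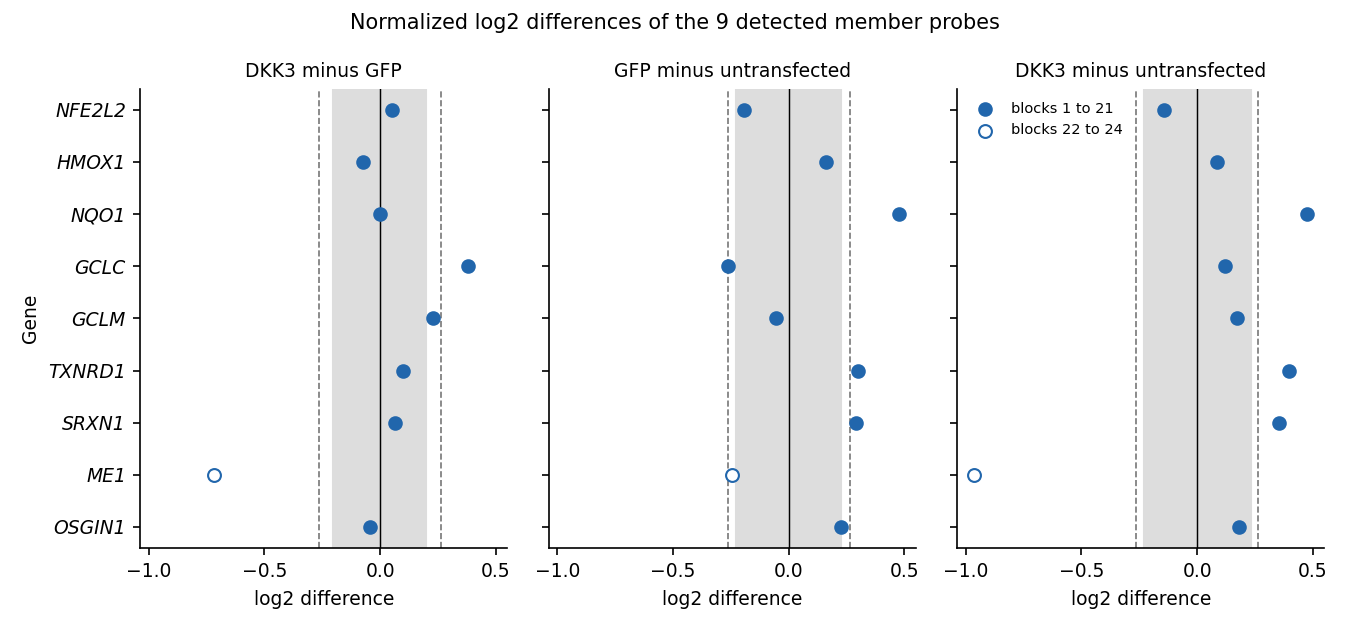
Log2 differences of the 9 detected member probes in the 3 comparisons. The grey band spans the 5th to 95th percentile of all detected probes (-0.20 to 0.20 for DKK3 minus GFP), dashed lines mark 1.2-fold, and the open circle is ME1, printed in blocks 22 to 24. NQO1, TXNRD1 and SRXN1 lie right of the dashed line in both comparisons with untransfected cells, and GCLC alone does for DKK3 minus GFP.

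The spots printed beside ME1 were low on the DKK3 array too. GPI, the spot directly before it in row 1 of block 23, was at -0.70 for DKK3 minus GFP, and LMNB1, the spot directly after it, at -0.50. All 8 other detected probes within 5 print columns of ME1 in that row lay below 0, with a median of -0.16. Of the 69 other detected probes in the row, whose median was -0.054, 3 lay lower than ME1. Among the 28 probes of the row with a mean level of at least 8 on the log2 scale, ME1 included, the median was -0.19 and 11 were at least 1.2-fold lower on the DKK3 array. In blocks outside 22 to 24, 3.29% of probes at that level were (this level was chosen after the values were seen). With the median of its block and row subtracted, ME1 kept a DKK3 minus GFP difference of -0.65. ME1 has a single probe, so no reading from another place on the array was at hand, and the part of the print position in its difference was not tested.

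**Figure D3:**
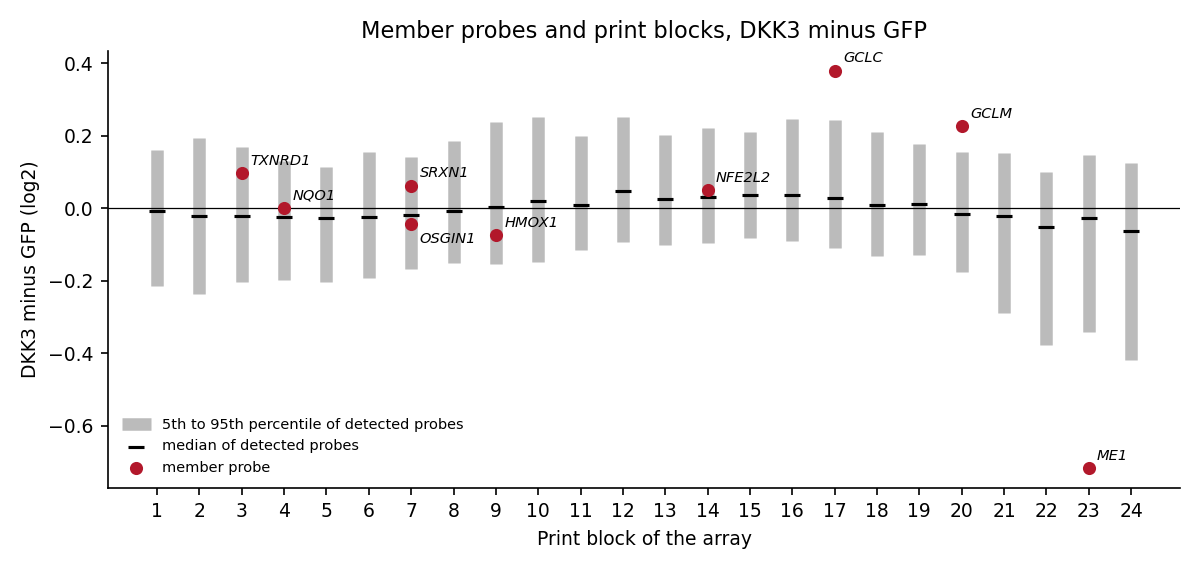
DKK3 minus GFP log2 difference by print block. Grey bars span the 5th to 95th percentile of detected probes in each block, black dashes are block medians, and red points are the 9 detected member probes. The bars of blocks 22 to 24 reach further down than the others, and ME1, at -0.72 in block 23, lies below its bar.

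**Figure D4:**
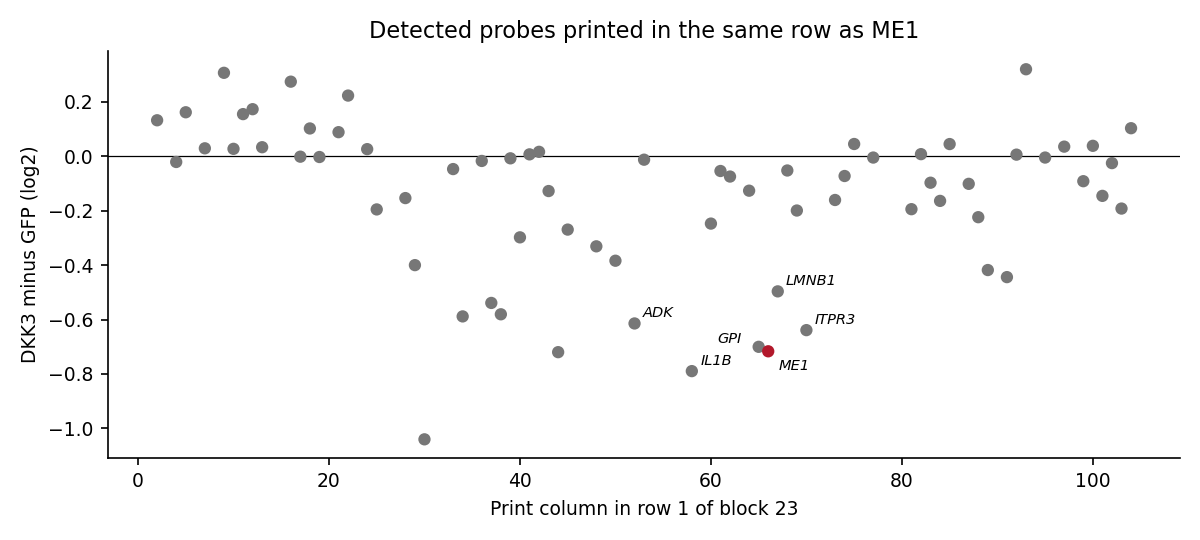
DKK3 minus GFP log2 difference of each detected probe in row 1 of block 23, by print column, with ME1 in red. ME1 (-0.72) sits between GPI (-0.70) and LMNB1 (-0.50), and low probes are spread over the middle of the row.

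For GFP minus untransfected, 3 of the 9 detected probes were at least 1.2-fold higher (NQO1, TXNRD1, SRXN1) and 0 lower, while 3.74% of the 18076 detected probes were higher, 3.43% lower and 7.17% either. For DKK3 minus untransfected the same 3 were higher and ME1 was lower, against 3.96% of all probes higher, 3.77% lower and 7.73% either. For DKK3 minus GFP, GCLC was higher and ME1 lower, against 2.25% of all probes higher, 2.97% lower and 5.22% either. None of the members reached 2-fold in the main processing, which 0.256% of all probes did for DKK3 minus GFP, 0.254% for GFP minus untransfected and 0.292% for DKK3 minus untransfected. ME1 was at least 2-fold lower for DKK3 minus untransfected in 8 of its 13 alternatives, down to -1.29 in the authors' deposited table. The median over the 9 genes was 0.17 for DKK3 minus untransfected, 0.16 for GFP minus untransfected and 0.050 for DKK3 minus GFP, against medians over all detected genes of -0.0049, -0.0046 and 0.00034. With median scaling the DKK3 minus GFP median turned to -0.066, and with no normalization to -0.15.

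Bright spots passed 1.2-fold more often than others, and 7 of the 9 detected member probes had a mean level of at least 8 on the log2 scale. Outside blocks 22 to 24, 9.37% of probes at that level were 1.2-fold higher and 7.85% lower for GFP minus untransfected. For DKK3 minus untransfected these shares were 9.92% and 3.96%, and for DKK3 minus GFP 5.24% and 3.29%. The members' counts are small numbers to set beside such shares, and nothing particular to the members is read from them.

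Across the 3 arrays, the probes with a pattern most like that of NQO1 belonged to SP100, a nuclear body protein, RMND1, a mitochondrial protein, and XAF1, an antagonist of an apoptosis inhibitor. Likeness was the Euclidean distance of the 3 centred log2 levels, and these lay 0.014, 0.016 and 0.024 from NQO1. They were higher with GFP than in untransfected cells by 0.47, 0.45 and 0.48. Of the 12703 probes compared, 75 lay within 0.1 of NQO1. The probes nearest to NFE2L2 belonged to DPAGT1, CTPS2 and NAA40, at 0.0021, 0.0033 and 0.0060, and 2043 probes, 16.1%, lay within 0.1 of it. Closeness here rests on 3 values a probe.

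Of 20 detected probes for 17 regulators, 1 was 1.2-fold higher and 1 lower for DKK3 minus GFP, and 2 were higher and 1 lower for GFP minus untransfected. Here and in the lists below, the shares of all detected probes past 1.2-fold either way were 5.22% for DKK3 minus GFP and 7.17% for GFP minus untransfected. The counts are small, and nothing particular to a list is read from them. For DKK3 minus untransfected 2 were higher (CDKN1A and SQSTM1) and 3 lower (DPP3, KEAP1 and a CUL3 probe), or 25% against 7.73% of all probes, and 3 of these 5 probes were printed in blocks 22 to 24. KEAP1, the inhibitor of NRF2, was at -0.41 for DKK3 minus GFP and -0.025 for GFP minus untransfected. Its spot, which read 325 on the DKK3 array, 500 with GFP and 493 without transfection, was printed in block 23 as well. BACH1, the repressor at the same elements, was at 0.051 and 0.056 in these comparisons. CUL3, the ligase scaffold, had 2 probes, in blocks 18 and 7. In that order they lay at -0.32 and 0.016 for GFP minus untransfected and at 0.0032 and 0.0030 for DKK3 minus GFP. DPP3, a KEAP1-binding peptidase printed in block 22, was at -0.23 for DKK3 minus GFP and -0.25 for GFP minus untransfected. SQSTM1, the autophagy receptor that sequesters KEAP1 and is itself an NRF2 target, was 0.31 higher with GFP and 0.32 higher with DKK3 than in untransfected cells, also from a spot of block 22. CDKN1A, the cell cycle inhibitor p21 that can bind NRF2, was higher by 0.44 and 0.40. NFE2L1, a relative of NRF2, had probes at 0.27 and -0.014 for DKK3 minus GFP, and the ligase adaptor FBXW11 was at 0.12.

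Thioredoxin and peroxiredoxin genes split around 0. Of 19 detected probes, 2 were 1.2-fold lower and 0 higher for DKK3 minus GFP, and 2 were higher and 0 lower for GFP minus untransfected. The lower pair were MSRB1, a methionine sulfoxide reductase, at -0.29, and TXNIP, which binds and inhibits thioredoxin, at -0.26. The TXNIP spot read 725 on the DKK3 array, 1003 with GFP and 779 without transfection, so the GFP array was the highest of the 3. Glutaredoxin, GLRX, was higher than in untransfected cells by 0.35 with GFP and 0.47 with DKK3, and TXNIP was at 0.27 with GFP and 0.0031 with DKK3. The sestrin SESN2 was at 0.26 and TXNL1 at 0.18 for DKK3 minus GFP, and the peroxiredoxin PRDX5 was at 0.24 for GFP minus untransfected. Thioredoxin itself, TXN, was at 0.073 for DKK3 minus GFP and -0.073 for GFP minus untransfected, and the NRF2 target PRDX1 was at 0.047 and 0.13.

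Of 23 detected probes of the glutathione list, 1 was higher and 1 lower by 1.2-fold for DKK3 minus GFP, and 2 were higher for GFP minus untransfected. SLC7A11, the cystine transporter that feeds glutathione synthesis, read 168 on the DKK3 array, 133 with GFP and 157 without transfection. As for GCLC, the GFP array was the lowest, with 0.39 for DKK3 minus GFP and -0.16 for GFP minus untransfected. Its partner chain SLC3A2 ran the other way, at -0.22 for DKK3 minus GFP and 0.28 for GFP minus untransfected. It was printed in row 1 of block 21, where the other detected probes of the row had medians of -0.054 and 0.18. In block 21, 6.40% of detected probes were at least 1.2-fold lower for DKK3 minus GFP. The part of print position in the SLC3A2 values was not tested. MGST3, a microsomal glutathione transferase in block 22, was at -0.36, and the 2 GSTP1 probes were at -0.20 and -0.20 for DKK3 minus GFP. GSTO1, another transferase, from block 24, was higher than in untransfected cells by 0.47 with GFP and 0.47 with DKK3. GSTK1 was at -0.17 for GFP minus untransfected. Glutathione reductase, GSR, was at 0.12 for DKK3 minus GFP and -0.035 for GFP minus untransfected. Over the 21 detected genes, 5 lay above 0 and 16 below for DKK3 minus GFP, with a median of -0.036. Over all detected probes 49.1% lay above 0, and the median over all detected genes was 0.00034. Of the 11 detected genes for superoxide and hydrogen peroxide enzymes, 1 lay above 0 and 10 below, with a median of -0.055. Nothing particular to a list is read from these counts.

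Genes of NADPH supply other than ME1 had 1 of 13 detected probes at 1.2-fold lower and 0 higher for DKK3 minus GFP. That probe was PGLS of the pentose phosphate pathway, at -0.54, in block 22. The NRF2 targets PGD and IDH1 were at -0.19 and -0.18, and the folate enzyme MTHFD2 at 0.20. For GFP minus untransfected, IDH1 was the 1 probe past 1.2-fold, at 0.29, with PGD at 0.21. The TALDO1 probes were at 0.24 and 0.14.

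Among detoxification genes, AKR1C2 and AKR1C3, aldo-keto reductases, were higher on the transfected arrays. AKR1C2 read 1372 on the DKK3 array, 1640 with GFP and 748 without transfection on its detected probe. It was 1.01 higher with GFP, or 2.02-fold, and 0.99 higher with DKK3, the widest differences from untransfected cells in all 7 lists. AKR1C3 read 1737 with DKK3, 1821 with GFP and 1291 without transfection, and was 0.56 above untransfected cells with DKK3 and 0.41 above them with GFP. These enzymes are close relatives, so their probes can pick up each other's RNA, and the other AKR1C2 probe was not detected on any array. The 2 probes of AKR1B10, another aldo-keto reductase and NRF2 target, were at -0.030 and -0.082 for GFP minus untransfected. PTGR1 was at -0.24 in that comparison. For DKK3 minus GFP, 1 of 26 detected probes was 1.2-fold higher and 0 lower. It was UGDH, which makes the sugar donor for glucuronidation, at 0.40, with readings of 162 on the DKK3 array, 128 with GFP and 133 without transfection. CBR1, CYP2A6 and SLC6A6 were at -0.19, -0.19 and -0.18.

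Heme and iron genes had 0 of 15 detected probes past 1.2-fold in any of the 3 comparisons. The ferritin chains FTL and FTH1, both NRF2 targets, were at 0.23 and 0.17 for GFP minus untransfected and at 0.020 and -0.057 for DKK3 minus GFP. The transferrin receptor TFRC was at -0.24 and 0.16, and biliverdin reductase B, BLVRB, at 0.22 and -0.12 in these comparisons. ACO1 had probes at 0.16 and 0.087, and IREB2 was at 0.089, for DKK3 minus GFP.

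Of the enzymes that make or remove superoxide and hydrogen peroxide, SOD2 and DUOXA2 differed most. SOD2, the mitochondrial superoxide dismutase and a known target of NF-κB, read 1462 on the DKK3 array, 1762 with GFP and 944 without transfection. It was higher than in untransfected cells by 0.79 with GFP and 0.74 with DKK3. DUOXA2, the maturation factor of the peroxide-making oxidase DUOX2, passed detection in DKK3 cells alone, at 73.7, against 32.3 with GFP and 40.6 without transfection. It was at least 1.68-fold higher with DKK3 than with GFP and at least 1.72-fold higher than in untransfected cells, counted from the lowest detected level there or its own level, whichever was higher. DUOX2 itself was at -0.038 for DKK3 minus GFP. The copper chaperone CCS was at -0.21 for DKK3 minus GFP and 0.29 for GFP minus untransfected. CYBA and NOXA1 were at -0.18 and -0.11 for DKK3 minus GFP, and SOD1 was at 0.21 for GFP minus untransfected. For DKK3 minus GFP, 1 of 12 detected probes of this list passed 1.2-fold, and for GFP minus untransfected 2 of 11 did.

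**Figure D5:**
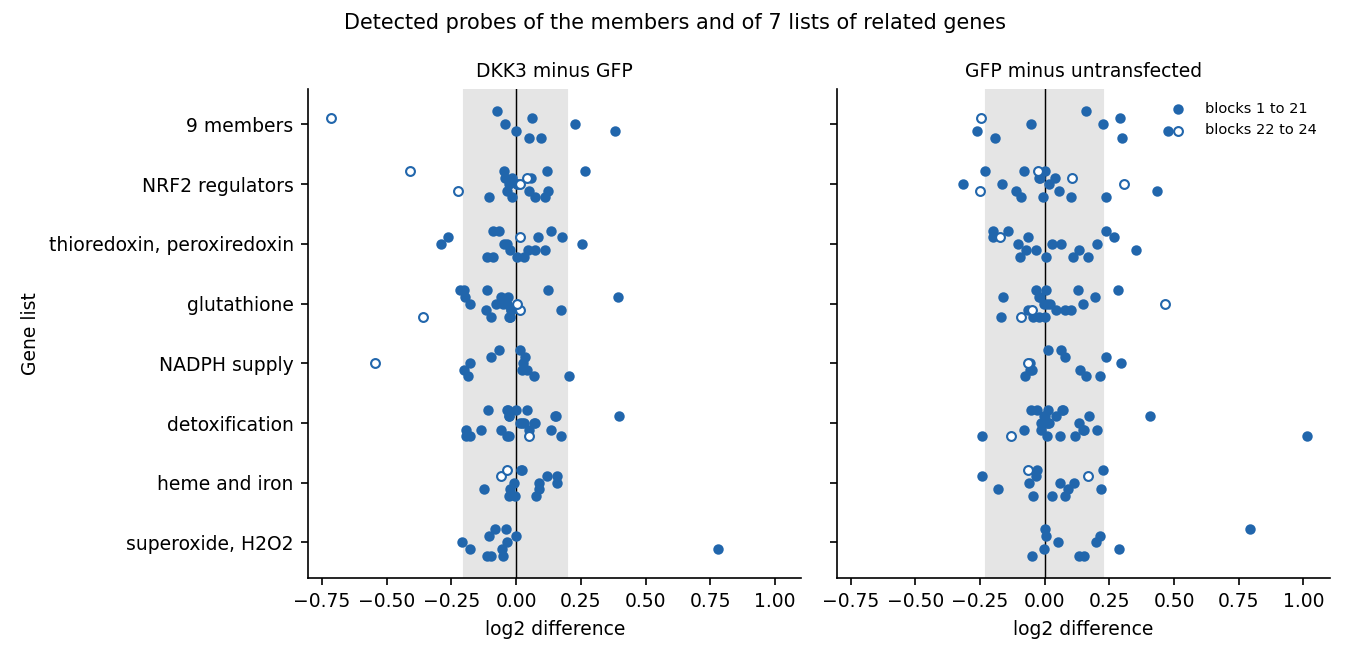
Log2 differences of the detected probes of the 9 members and of 7 lists of related genes, for DKK3 minus GFP (left) and GFP minus untransfected (right). Grey bands span the 5th to 95th percentile of all detected probes and open circles are probes of blocks 22 to 24. AKR1C2 (1.01) and SOD2 (0.79) lie furthest right in the right panel and DUOXA2 (0.78) in the left.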

How the data were processed

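Per the file headers, the deposited scanner values are spot median intensity at 635 nm, with straight lines fitted between 3 gains. A further column, headed as background, correlated with it at 0.994 to 0.998 (log2) and was not subtracted. The authors' deposited value table also holds intensity, linear, with a median of 25 on each array. Its values lay within 0.509 of a straight line of the spot column whose 0 lay close to the blanks' mean. How the authors made it is not stated.

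Here background was corrected with normexp, offset 50 (limma 3.58.1, R 4.3.3), control spots and 6 flagged gene probes were dropped, and log2 values were taken after quantile normalization. A call is a rule of size, at least 1.2-fold (0.26 on the log2 scale), for probes detected on at least 1 array compared. The procedure was tested on simulated data with no print-position effect and with changes made in bright probes only. That test could not show how print position or dim spots affect the calls. Gene names came from the 2011 platform annotation, with 2898 probes updated through unique RefSeq synonyms (GRCh38.p14). No genome position of a probe was used.

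The members, the lists and the rules were set with earlier results of these data known, though no measured value was used to pick a member. Named were all member probes, 11 standard partners and targets, and from each of the 7 lists the 4 genes furthest from 0 for DKK3 minus GFP and the 3 for GFP minus untransfected. AKR1B10 and DUOX2 were named after their values were seen, as a relative and a partner of such genes.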

Additional observations from a re-analysis of the deposited data

How the results depend on the processing

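15 alternatives were tried for background, normalization, the value table, the dim filter, print position and the use of probes or genes. Of 375 values of single members, 308 moved by less than the robust SD of all probes (0.084, 0.084 and 0.079 log2 units for DKK3 minus GFP, GFP minus untransfected and DKK3 minus untransfected), 67 by more, and none of those past 1.2-fold turned sign. Of 90 group values 70 held. Those included some counts that changed by 1, such as 4 to 5 for DKK3 minus untransfected with offset 16. The GFP minus untransfected median of 0.16 became 0.25 with offset 16, 0.30 with offset 0, 0.30 with the blank mean subtracted and 0.31 in the authors' deposited values once centred. Its count of 3 probes past 1.2-fold became 5, 7, 7 and 6 in that order, 5 with no background correction and 5 in the authors' values as they stand, where 4 were lower. The share of all probes past 1.2-fold grew too, to 11.1%, 19.0%, 23.7%, 23.9%, 9.0% and 47.0% in the same order, against 7.17%. The authors' values as they stand put the median of all genes at -0.23 for GFP minus untransfected and -0.25 for DKK3 minus untransfected. For DKK3 minus untransfected they gave a median of 0 and a count of 2. No normalization gave 0.034 and 2, and median scaling a median of 0.089. For DKK3 minus GFP the median was -0.066 with median scaling and -0.15 with no normalization, where all genes stood at -0.10. The count was 1 in both and 1 without blocks 22 to 24. No paired analysis was possible because each group is 1 array. Spots as dim as HMOX1 and OSGIN1 limit what small differences can show.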

Other observations

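8 of the 9 members rest on a single probe, and SRXN1 on a single detected one. Genes with exactly 2 detected probes were therefore counted, a view chosen after the data were seen. For GFP minus untransfected there were 1571 such genes, and 240 of their probes were at least 1.2-fold from 0. The other probe of the gene had the same sign for 72.5% of these, and was itself past 1.2-fold in the same direction for 20%. For DKK3 minus untransfected the shares were 65.0% and 17.5% of 274 probes, and for DKK3 minus GFP 64.9% and 10.3% of 194 probes. Without blocks 22 to 24 the DKK3 minus GFP shares were 70% and 9.09% of 110 probes.

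Within the lists, the 2 GSTP1 probes lay at -0.20 and -0.20 for DKK3 minus GFP, whereas the TALDO1 probes lay at 0.035 and -0.20.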
